A study of Homo sapiens with 6 samples.

Results

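Genes of the hypoxia-inducible factor (HIF) pathway were followed in HS578T cultures stably carrying an EP300 plasmid and in cultures with the same plasmid lacking an insert. The list held 32 genes, 11 that make or control the factor (regulators) and 21 listed as switched on by it (targets). A gene was measured where a probe set of the array carried its symbol in the platform annotation, and where several did, the brightest on average was taken. This gave 29 of the 32 genes, 10 regulators and 19 targets, out of 17687 named genes and 21448 probe sets. ARNT2, CA9 and RORA-AS1 were not analysed here. Each of the 29 genes had a single probe set.

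HS578T is a human breast carcinoma line that looks mesenchymal. The product of EP300, also called p300, acetylates lysines and acts as a co-activator of transcription. All 6 cultures carried pcDNA 3, the control cultures without an insert and the EP300 cultures with cloned EP300 cDNA, and all grew in medium with G418, insulin and low glucose. The vector was stably integrated and each line was a pool of clones, so a line is a mixture of transfectants. Each group had 3 cultures, with 1 Affymetrix whole-transcript array each. The sources used here do not state the oxygen level, or whether the cultures of a group came from separate transfections. The p-values therefore set a difference against the spread between these cultures, moderated by that of all probe sets. The level of EP300 itself was not analysed here, and the labels were therefore not checked against it.

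HIF is a pair of proteins, an oxygen-labile alpha subunit (from HIF1A, EPAS1 or HIF3A) and a stable beta subunit (from ARNT or ARNT2). With oxygen present, the prolyl hydroxylases encoded by EGLN1, EGLN2 and EGLN3 mark the alpha subunit for the VHL ubiquitin ligase, and the asparaginyl hydroxylase encoded by HIF1AN blocks its contact with the co-activators EP300 and CREBBP. CITED2 competes with HIF1A for that same contact. Because alpha subunits are controlled mainly as proteins, their transcript levels alone do not give HIF activity. The targets serve glucose uptake, acid balance, vessel growth, mitophagy and lipid storage.

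HIF binds DNA at a short core whose letters are ACGTG or GCGTG. Both were searched on both strands in the 250 bases before the RefSeq start of each gene (GRCh38.p14, first listed start per gene). The table held 24 of the 32 genes, and the core was present in 20 of these (83.3%), against 43.1% of 27305 genes in that table. Of the measured members, 12 of 13 targets and 6 of 9 regulators held it. It was present in 14 of 17 members with a lower mean and in 4 of 5 with a higher mean in EP300 cultures. The members were listed as known HIF pathway genes, and the comparison was not matched for base composition. These shares are therefore not read as a result about the members. ACGTG and its reverse complement overlap in CACGTG, which counts as 1 stretch here. Below are 4 target promoters, 5′ to 3′ on the gene's strand, with each core in capitals. They are shown because SLC2A1 was the target with an unadjusted p below 0.05, ERO1A had groups that did not overlap, and ADM and BNIP3 are textbook hypoxia genes. STC1, whose groups did not overlap either, had no entry to search, and nor had VEGFA, SLC2A3, BNIP3L, NDRG1, HILPDA, VHL and ARNT2.
SLC2A1 (chr1:42958869-42959118, minus strand): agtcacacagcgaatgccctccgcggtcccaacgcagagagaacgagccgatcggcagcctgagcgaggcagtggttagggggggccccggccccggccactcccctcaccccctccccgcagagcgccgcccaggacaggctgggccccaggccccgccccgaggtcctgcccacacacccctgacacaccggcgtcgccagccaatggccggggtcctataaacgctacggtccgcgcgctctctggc
ERO1A (chr14:52695559-52695808, minus strand): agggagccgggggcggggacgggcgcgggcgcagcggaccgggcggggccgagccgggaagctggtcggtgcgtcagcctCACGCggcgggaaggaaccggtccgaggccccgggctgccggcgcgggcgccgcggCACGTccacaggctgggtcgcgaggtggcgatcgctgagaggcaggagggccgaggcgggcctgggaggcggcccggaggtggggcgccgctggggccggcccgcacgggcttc
ADM (chr11:10304823-10305072, plus strand): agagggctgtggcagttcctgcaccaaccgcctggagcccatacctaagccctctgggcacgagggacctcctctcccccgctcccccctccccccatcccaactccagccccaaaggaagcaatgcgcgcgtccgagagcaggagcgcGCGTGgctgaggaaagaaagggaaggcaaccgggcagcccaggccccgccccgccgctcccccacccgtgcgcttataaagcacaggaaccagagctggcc
BNIP3 (chr10:131981924-131982173, minus strand): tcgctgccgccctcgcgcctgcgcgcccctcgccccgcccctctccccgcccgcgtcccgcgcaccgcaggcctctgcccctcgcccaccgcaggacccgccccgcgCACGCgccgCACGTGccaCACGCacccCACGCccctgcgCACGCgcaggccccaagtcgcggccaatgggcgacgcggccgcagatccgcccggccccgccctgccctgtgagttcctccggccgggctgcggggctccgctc
BNIP3 held 5 separate stretches, ERO1A held 2 and ADM held 1, while SLC2A1 held 0 in this window. These are matches of letters and not measured binding sites.

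The deposited values were taken as log2 values, and differences are EP300 minus control on that scale, with limma's moderated standard error (SE). Lower quartiles of the arrays lay between 3.47 and 3.50, and every pair of arrays correlated at 0.977 to 0.981. Values below the lower quartile get no fold, since the background of the arrays is unknown. The number of arrays limits the precision: the 95% intervals of the 29 genes reached between 0.43 and 0.86 to each side of the difference.

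No HIF pathway member passed the threshold of an adjusted p of 0.05, and nor did any other probe set (0% of 21448, limma with Benjamini-Hochberg adjustment). The members' adjusted p lay between 0.74 and 0.994. Differences as large as -1.77 and 2.26, the extremes over all probe sets, were not called either, so 0 calls among the members do not show that they were unchanged. Most members had a lower mean in EP300 cultures: 22 of 29 were lower and 7 higher, where 49.7% of all probe sets were lower. Of the 29, 25 lay above the array medians, against 10482 of the 21448 probe sets, so these shares come from unlike levels. The members were also chosen with earlier results of these data known, and the count was not tested. The targets were lower in 15 of 19 cases, with a median difference of -0.21, and the regulators in 7 of 10, with a median of -0.14. The median over all probe sets was 0.00 to 2 decimals, and the median absolute difference was 0.22 for the members and 0.20 for all probe sets. At an unadjusted limma p below 0.05 there was 1 member, SLC2A1, which was lower, beside 3.07% of all probe sets that were lower and 3.45% that were higher at that p. The groups did not overlap for 3 members, all lower (SLC2A1, STC1 and ERO1A), against 5.91% of all probe sets that were lower without overlap and 12.2% in either direction. Both counts are small, and neither is read as a result about the members. Among probe sets above the median level the target median was -0.33 over 17 genes. Without EP300 replicate 1 the regulator median was -0.08. Leaving out a single array moved the difference by over 1.5 times for 24 of the 29 members, the exceptions being SLC2A1, STC1, EPAS1, BHLHE40 and NDRG1.

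**Figure D1:**
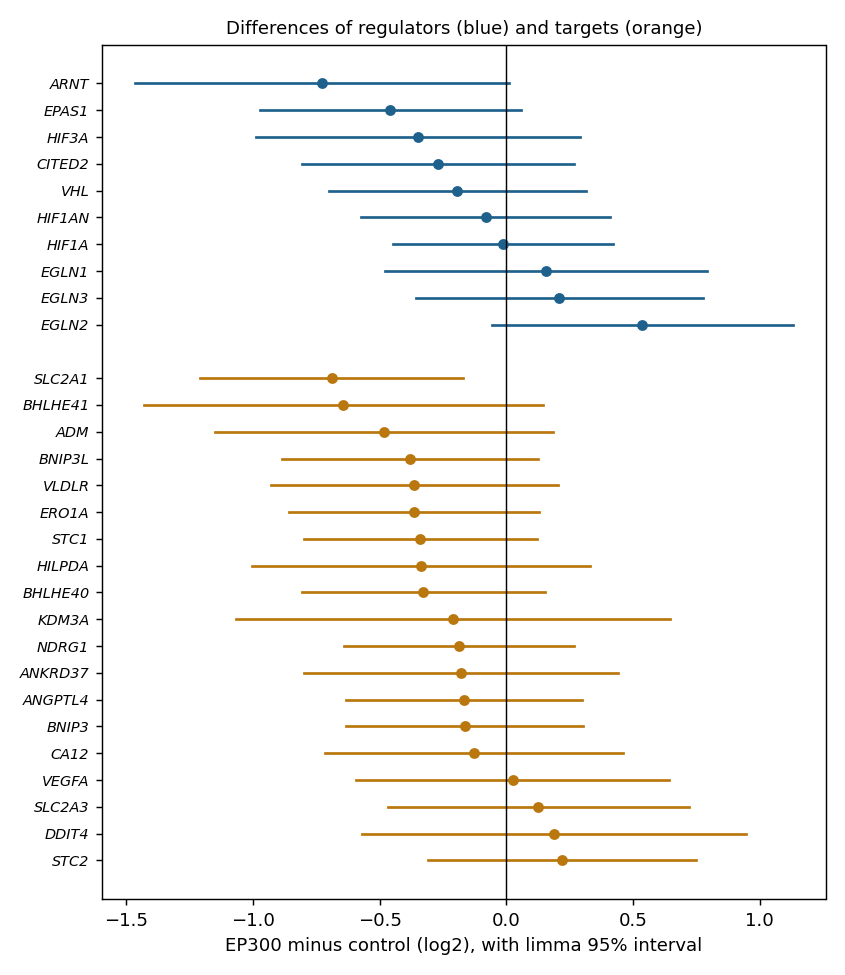
Difference of EP300 minus control (log2, points) with the limma 95% interval (lines) for 10 regulators (blue) and 19 targets (orange), each sorted by difference. The interval of SLC2A1 lies below 0, and the other intervals include 0.

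The genes for the HIF subunits had lower means in EP300 cultures in all 4 measured cases, with overlapping groups in each and none past the threshold. For HIF1A this rests on a difference of -0.01. HIF1A read 16.44, 16.42 and 16.42 in control cultures and 16.42, 16.42 and 16.40 in EP300 cultures. The groups overlapped and the difference was -0.01 ± 0.19 SE (95% interval -0.45 to 0.42, limma adjusted p = 0.994). Its SDs were 0.014 in control and 0.007 in EP300 cultures, so this SE came mainly from limma's moderation over all probe sets. This probe set hardly varied: its range over the 6 arrays was 0.037, and 0 of the 43 other probe sets within 0.5 of its level had a range as small, with a median of 0.44. Whether it can register a difference at this level was not tested.

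EPAS1, which encodes the alpha subunit HIF-2 alpha, read 10.41, 9.86 and 10.10 in control cultures. In EP300 cultures it read 9.87, 9.59 and 9.53, so that 1 EP300 culture reached the lowest control culture. The means were 10.12 ± 0.28 and 9.66 ± 0.18 (SD, n = 3 each), a difference of -0.46 ± 0.23 SE (limma adjusted p = 0.791). HIF3A, the third alpha subunit gene, read 4.31, 3.31 and 3.96 against 3.32, 3.44 and 3.78. Its groups overlapped fully, the difference was -0.35 ± 0.29 SE, and its levels were close to the lower quartile of the arrays. The difference was -0.12 without control replicate 1 and -0.62 without control replicate 2.

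ARNT, the gene for the shared beta subunit, had the largest difference among the regulators, except without EP300 replicate 2. It read 7.40, 7.09 and 7.08 in control cultures and 7.21, 5.83 and 6.35 in EP300 cultures. EP300 replicate 1 thus lay among the controls, while replicates 2 and 3 lay below all of them. The EP300 SD of 0.70 was larger than the control SD of 0.18, and the difference of -0.73 ± 0.33 SE (1.65-fold lower) had a limma p of 0.0531 before and 0.77 after adjustment. The difference was -1.10 without EP300 replicate 1 and -0.41 without EP300 replicate 2.

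**Figure D2:**
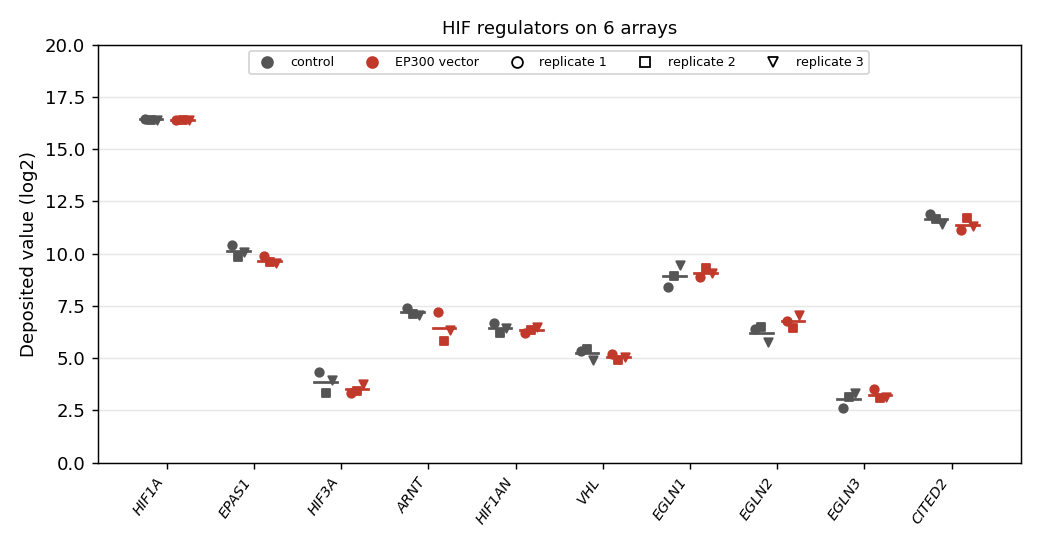
Deposited values (log2) of the 10 measured regulators on the 3 control (grey) and 3 EP300 (red) arrays, with bars at the group means and a symbol for each replicate number. The HIF1A points coincide near 16.4, the EP300 points of ARNT spread from 5.83 to 7.21, and no regulator has groups that are fully apart.

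The oxygen-sensing genes went both ways, with 3 of 5 higher and 2 lower, and a median difference of 0.16. EGLN2, a prolyl hydroxylase gene, had the largest positive difference of the members on all arrays. It read 6.39, 6.48 and 5.79 in control and 6.75, 6.45 and 7.07 in EP300 cultures. EP300 replicate 2 fell within the control range, and the difference was 0.54 ± 0.26 SE (95% interval -0.05 to 1.13, limma adjusted p = 0.789). Without control replicate 3 it was 0.32, below EGLN1 at 0.42 and EGLN3 at 0.36. EGLN1, the main hydroxylase for HIF1A in most cells, read 8.42, 8.91 and 9.45 against 8.87, 9.31 and 9.08. The controls spanned the EP300 values, and the difference of 0.16 ± 0.28 SE became -0.09 without control replicate 1. EGLN3, a hydroxylase gene that is itself a HIF target, read 2.62, 3.14 and 3.33 against 3.52, 3.09 and 3.12. Both group means were under the arrays' lower quartiles.

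VHL, the substrate receptor of the ligase, read 5.36, 5.44 and 4.91 in control and 5.18, 4.90 and 5.05 in EP300 cultures. The groups overlapped, with a difference of -0.19 ± 0.23 SE (limma adjusted p = 0.915), which ran from -0.36 without control replicate 3 to -0.09 without control replicate 2. HIF1AN read 6.67, 6.19 and 6.42 against 6.21, 6.35 and 6.48, a difference of -0.08 ± 0.22 SE, which was 0.04 without control replicate 1. CITED2, whose product competes with HIF1A for EP300 and is induced by HIF, read 11.91, 11.65 and 11.43 in control cultures. In EP300 cultures it read 11.14, 11.72 and 11.32. EP300 replicate 2 lay inside the control range and the others below it, and the difference was -0.27 ± 0.24 SE (95% interval -0.81 to 0.27, limma adjusted p = 0.893).

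Among genes for transport of glucose and acid, SLC2A1 had the largest difference of the targets on all arrays. Without control replicate 1, EP300 replicate 1 or EP300 replicate 3 that of BHLHE41 was larger, and without control replicate 3 that of VLDLR. SLC2A1 encodes GLUT1, the glucose carrier that HIF raises in many cells. It read 11.46, 11.38 and 11.66 in control cultures and 10.81, 11.12 and 10.50 in EP300 cultures. All EP300 cultures lay below all control cultures. The means were 11.50 ± 0.15 and 10.81 ± 0.31 (SD, n = 3 each), which is 1.61-fold lower. The difference was -0.69 ± 0.23 SE, with a limma p of 0.0145 before and 0.74 after adjustment, and an exact two-sided permutation p of 0.1, the smallest that 3 against 3 allows. Without a single array it ran from -0.84 (EP300 replicate 2) to -0.53 (EP300 replicate 3), where SLC2A1 no longer had an unadjusted limma p below 0.05. Its limma adjusted p lay between 0.581 and 0.866 over all alternatives.

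CA12, a membrane carbonic anhydrase gene, read 9.35, 9.20 and 9.89 in control cultures. EP300 replicates 2 and 3 lay within that range, at 9.60 and 9.46, and EP300 replicate 1 lay below it. The difference of -0.13 ± 0.26 SE was smaller than the SD of either group (0.36 and 0.31). SLC2A3, the gene for the glucose carrier GLUT3, read 2.77, 2.58 and 2.92 against 3.40, 2.72 and 2.52, and both means were below the lower quartile.

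The genes for secreted factors did not share a direction, with 3 lower and 2 higher. VEGFA, the vessel growth factor gene, read 12.01, 11.66 and 11.48 in control and 11.44, 12.26 and 11.51 in EP300 cultures. EP300 replicate 2 was the highest of the 6 and EP300 replicate 1 the lowest. The difference was 0.02 ± 0.28 SE (95% interval -0.59 to 0.64, limma adjusted p = 0.992), and it was -0.24 without EP300 replicate 2. ADM, which encodes the vasodilator adrenomedullin, read 10.35, 9.70 and 10.08 against 8.97, 9.88 and 9.84. EP300 replicate 1 alone lay below all controls, and the difference of -0.48 ± 0.30 SE was -0.19 without it.

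STC1 encodes stanniocalcin, a secreted hormone. It read 11.92, 11.60 and 11.67 in control cultures and 11.40, 11.48 and 11.30 in EP300 cultures. The groups did not overlap, although the difference was only 1.26-fold (-0.34 ± 0.21 SE, limma adjusted p = 0.825). Its relative STC2 read 13.23, 12.95 and 12.85 against 12.93, 13.23 and 13.54, a difference of 0.22 ± 0.24 SE in the other direction with overlapping groups. It was 0.07 without EP300 replicate 3 and 0.37 without EP300 replicate 1. ANGPTL4, an inhibitor of lipoprotein lipase, lay between 2.51 and 2.95 on all 6 arrays, below their lower quartiles.

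Of the mitophagy and growth control genes, 3 were lower and 1 higher. BNIP3, a mitophagy receptor gene, read 15.40, 15.28 and 15.56 in control and 15.08, 15.38 and 15.29 in EP300 cultures. The groups overlapped, with a difference of -0.16 ± 0.21 SE. Its relative BNIP3L read 14.47, 14.28 and 14.34 against 13.68, 14.28 and 13.97. EP300 replicate 2 matched the lowest control and the others lay below, and the difference was -0.38 ± 0.23 SE (limma adjusted p = 0.82). NDRG1, a stress response gene, differed by -0.19 ± 0.20 SE. DDIT4, which encodes the mTORC1 inhibitor REDD1, varied most among the controls of this group, at 6.91, 5.94 and 5.63, and its difference was 0.19 ± 0.34 SE.

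The lipid and secretory genes were lower in all 3 cases. ERO1A, the gene for an oxidase that forms disulfide bonds in the endoplasmic reticulum, read 14.11, 13.92 and 14.18 in control and 13.42, 13.82 and 13.88 in EP300 cultures. The groups did not overlap, but the gap between the highest EP300 and the lowest control culture was narrow. The difference was -0.36 ± 0.22 SE (1.29-fold lower, limma adjusted p = 0.825). HILPDA, a lipid droplet protein gene, differed by -0.34 ± 0.30 SE with control values of 5.31, 6.16 and 6.23, so that control replicate 1 lay apart from the others. VLDLR, a lipoprotein receptor gene, read 7.55, 7.41 and 6.73 in control cultures and 6.89, 6.82 and 6.89 in EP300 cultures, a difference of -0.36 ± 0.25 SE.

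The transcription and chromatin genes were lower in all 4 cases, with a median difference of -0.27. BHLHE41, which encodes a repressor of the circadian clock, had the next largest difference after SLC2A1 among the targets on all arrays. It read 8.07, 8.51 and 9.14 in control and 8.13, 7.28 and 8.38 in EP300 cultures. The groups overlapped and the difference was -0.64 ± 0.35 SE (limma adjusted p = 0.806), or -0.32 without EP300 replicate 2. Its paralog BHLHE40 read 13.88, 13.53 and 13.78 against 13.44, 13.55 and 13.23, a difference of -0.33 ± 0.21 SE. The histone demethylase gene KDM3A had the widest control spread of the members, at 5.06, 5.90 and 6.77, and its difference was -0.21 ± 0.38 SE. ANKRD37, an ankyrin repeat gene, differed by -0.18 ± 0.28 SE. The differences of VEGFA, CA12, DDIT4, SLC2A3, KDM3A and ANKRD37 changed sign when some single array was left out.

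**Figure D3:**
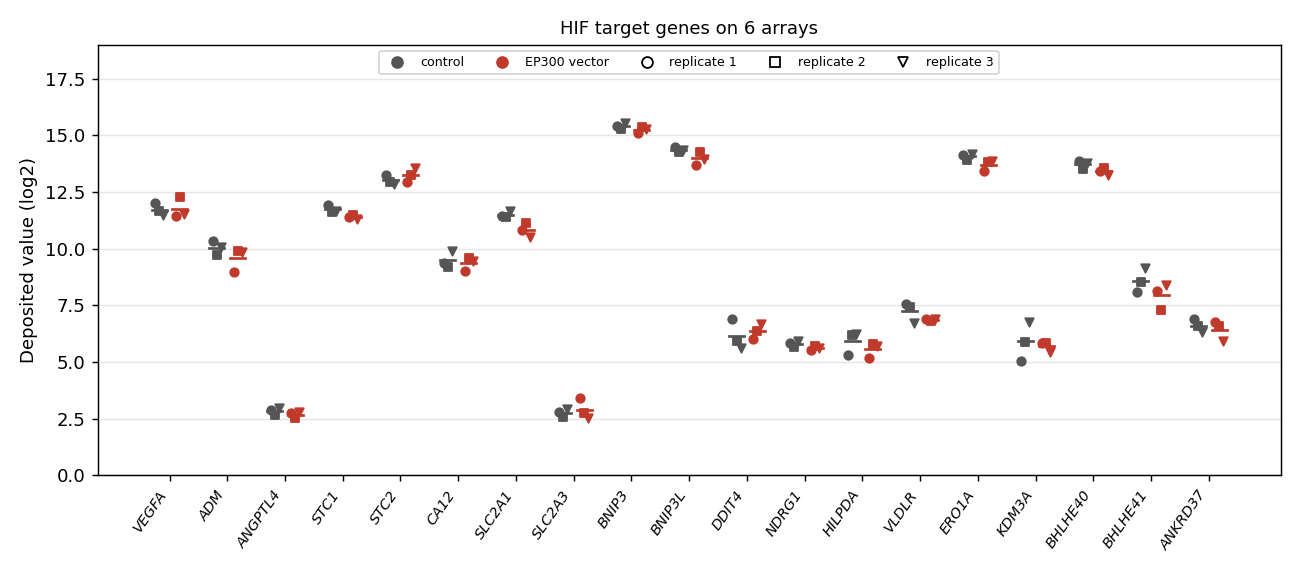
Deposited values (log2) of the 19 measured targets on the 3 control (grey) and 3 EP300 (red) arrays, with bars at the group means and a symbol for each replicate number. The EP300 points of SLC2A1, STC1 and ERO1A lie below their control points, and the points of the other 16 targets overlap.

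The targets did not vary evenly over the arrays. Control replicate 3 had the highest value for 9 of the 19 targets and control replicate 1 for 7, while control replicate 2 was the highest for 0. EP300 replicate 1 had the lowest value for 8 targets and EP300 replicate 3 for 5. Set against each gene's mean over the 6 arrays, the median deviation of the targets was 0.22, -0.04 and 0.20 in the control cultures. It was -0.19, 0.02 and -0.10 in the EP300 cultures. EP300 replicate 2 was thus slightly above control replicate 2, and the groups overlapped in this median. For the regulators it was 0.25, -0.01 and 0.11 in control and -0.01, -0.04 and -0.02 in EP300 cultures. Control replicate 1 held the highest value of 6 of the 10 regulators.

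**Figure D4:**
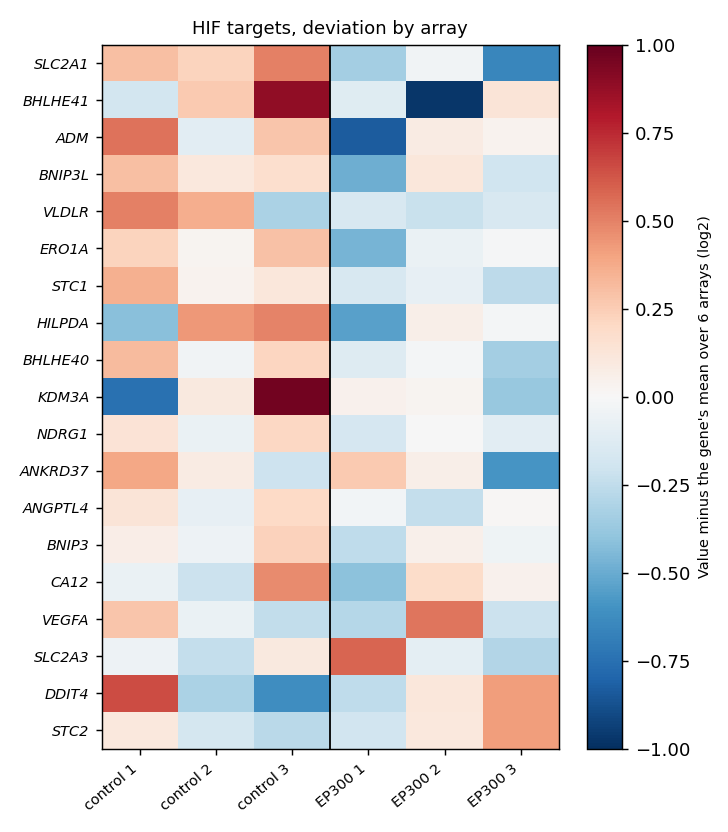
Value of each of the 19 targets on each array minus the gene's mean over the 6 arrays (log2, colour), sorted by difference, with a line between control and EP300 arrays. The median of a column is highest for control replicates 1 and 3, at 0.22 and 0.20, and lowest for EP300 replicate 1, at -0.19.

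Outside the members, 75 of 86 further HIF pathway genes were measured. Of these, 45 had a lower mean in EP300 cultures and 29 a higher one, with a median difference of -0.08, and 0 passed the adjusted threshold. GAPDH, the last of the 75, lay at the highest value of the table on every array, where its probe set cannot show a difference. At an unadjusted limma p below 0.05 there were 9 lower and 5 higher of the 75, beside 3.07% and 3.45% of all probe sets. The groups did not overlap for 14 lower and 6 higher genes of the 75, beside 5.91% and 6.30%. Of the 75, 61 lay above the array medians, against 10482 of the 21448 probe sets, so these shares also come from unlike levels. These genes were chosen with earlier results of these data known, so the counts are not read as an enrichment. The median was -0.03 without control replicate 1 and -0.12 without control replicate 3. Per role and direction, the 3 genes of smallest p are named.

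Glycolysis targets were lower in 11 of 17 cases, with a median of -0.09, and 3 of them had an unadjusted p below 0.05. PDK1, a kinase that shuts pyruvate dehydrogenase, read 8.53, 8.70 and 8.48 in control and 7.66, 7.42 and 7.84 in EP300 cultures. HK1, encoding hexokinase 1, read 8.12, 8.28 and 8.26 against 7.63, 7.42 and 7.39, a difference of -0.74 ± 0.20 SE (limma adjusted p = 0.735). PGK1, encoding phosphoglycerate kinase, read 14.44, 13.97 and 13.92 against 13.79, 13.45 and 13.07, a difference of -0.67 ± 0.26 SE. All 3 had EP300 cultures below all controls. In the other direction, PGAM1 differed by 0.26 ± 0.24 SE, PFKP by 0.21 ± 0.21 and HK2 by 0.14 ± 0.24, each with overlapping groups.

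Matrix, vessel and migration targets were lower in 10 of 14 cases. The lysyl oxidase gene LOX read 14.58, 14.32 and 14.57 in control and 13.72, 13.92 and 13.84 in EP300 cultures. P4HA1 and P4HA2, which encode collagen prolyl hydroxylase subunits, differed by -0.54 ± 0.22 SE and -0.52 ± 0.23 SE, and all EP300 values of both lay below all control values. PGF, a vessel growth factor gene related to VEGFA, read 7.40, 7.11 and 6.90 in control and 7.83, 7.44 and 8.03 in EP300 cultures. It was higher in all EP300 cultures, by 0.63 ± 0.24 SE (limma adjusted p = 0.748). ANGPT2 and EDN1 differed by 0.29 ± 0.28 SE and 0.20 ± 0.26 SE, and the difference of ANGPT2 was 0.04 without EP300 replicate 3.

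The remaining targets held the largest differences in both directions. MXI1, whose product binds MAX and counters MYC, read 8.88, 8.66 and 8.82 in control and 7.48, 7.74 and 7.05 in EP300 cultures. GYS1, encoding muscle glycogen synthase, read 11.95, 12.03 and 12.01 against 10.97, 11.30 and 10.57, which is 2.08-fold lower (-1.05 ± 0.24 SE, limma adjusted p = 0.689). IGFBP3, encoding a growth factor binding protein, differed by -1.28 ± 0.23 SE. ERRFI1, which encodes an inhibitor of the EGF receptor, read 11.88, 11.48 and 11.83 in control and 12.70, 13.21 and 12.99 in EP300 cultures. That is 2.36-fold higher (1.24 ± 0.23 SE, limma adjusted p = 0.476). The transferrin receptor gene TFRC and the histone demethylase gene KDM4B differed by 0.67 ± 0.24 SE and 0.65 ± 0.24 SE, without overlap of the groups.

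Genes for HIF turnover and cofactors were higher in 11 of 17 cases, with a median of 0.10. ELOB and ELOC encode the elongins that join VHL to its ligase. ELOB read 5.39, 5.34 and 5.69 in control and 6.26, 6.24 and 6.01 in EP300 cultures, a difference of 0.70 ± 0.21 SE without overlap (limma adjusted p = 0.735). ELOC differed by 0.38 ± 0.21 SE, also without overlap. RBX1, the RING subunit of the same ligase, lay in the other direction at -0.51 ± 0.26 SE, with control values of 6.61, 6.66 and 7.42 against 6.52, 6.20 and 6.43. It was -0.25 without control replicate 3. The ubiquitin ligase genes SIAH2 and SIAH1 differed by -0.33 ± 0.30 SE and -0.20 ± 0.31 SE, and CITED4, a relative of CITED2, by 0.31 ± 0.23 SE, each with overlapping groups. SIAH2 was at -0.02 without control replicate 1 and at -0.60 without control replicate 3.

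**Figure D5:**
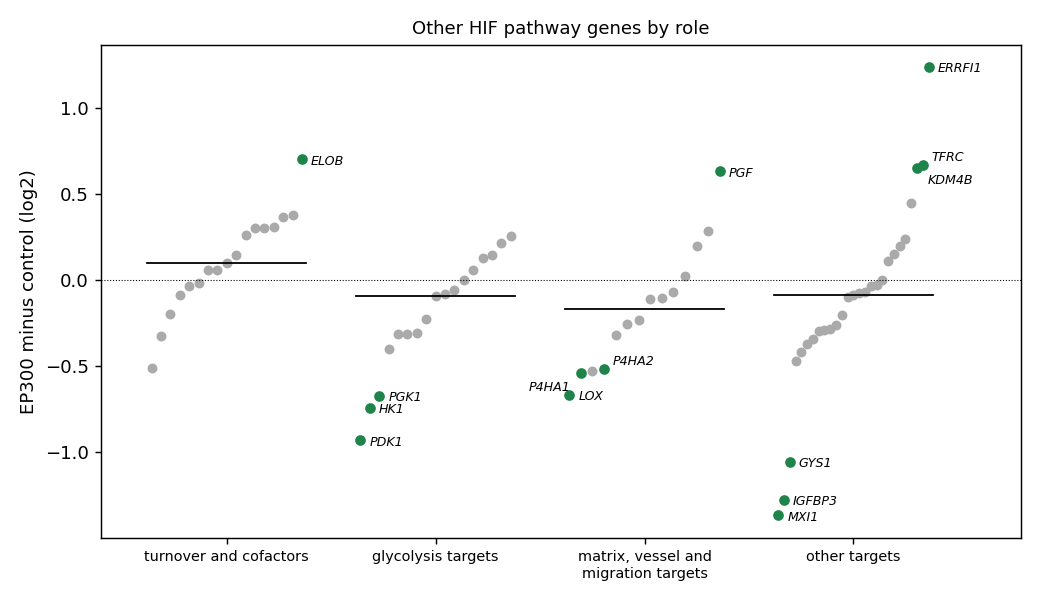
Difference of EP300 minus control (log2) for 75 further HIF pathway genes in 4 roles, sorted within each role, with a bar at the median. Green points (named) are the 14 genes with an unadjusted limma p below 0.05, and none passed after adjustment.

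Other cell properties were read from marker lists. Of the mesenchymal markers, which define HS578T, 8 of 11 were lower and 2 higher, and VIM read the same on every array. TAGLN differed by -1.18 and THY1 by -0.75. SNAI2 was higher by 0.71 and PDGFRB by 0.32, both without overlap of the groups. Of the 8 lower markers, 6 also had groups that did not overlap, TAGLN and THY1 among them. In either direction this held for 8 of the 11 markers, beside 12.2% of all probe sets. All 11 lay above the array medians. The mean log2 level of the list was 14.2 to 14.3 in control and 13.9 to 14.1 in EP300 cultures. This list thus had a lower mean beside the targets, but its genes did not share a direction. Its part in the result was not tested. For 10 epithelial markers the mean level was 4.79 to 4.96 in control and 4.71 to 4.93 in EP300 cultures. This mean covers differences in both directions, with 4 markers lower and 6 higher. KRT18 differed by -1.11, MUC1 by -0.93 and CLDN7 by 0.27, the 3 markers of this list without overlap of the groups. CDH1 differed by 0.71 with overlapping groups, and both of its means were below the lower quartile. The mean level was 10.5 to 10.7 and 10.7 to 10.8 for 6 proliferation genes. For 8 endothelial markers it was 3.49 to 3.64 and 3.43 to 3.75, and for 7 leukocyte markers 4.83 to 5.03 and 4.86 to 5.09. In whole-culture RNA, fewer cells of a kind and less RNA per cell cannot be told apart.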

How the data were processed

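Total RNA of 6 HS578T cultures was labelled with the GeneChip WT PLUS kit, per the labels' protocols. The authors' deposited table holds 1 value per probe set and array, taken as log2 from its range (1.79 to 19.9). The authors used Partek 6.6, per the submitters' processing notes, whereas background correction, normalization and build were not stated. The platform annotation gave 1 gene symbol for 17709 of 21448 probe sets. All 17709 gene identifiers were found in RefSeq (GRCh38.p14), with 0 symbols updated.

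The 3 EP300 and 3 control arrays were compared with lmFit and eBayes (limma 3.58.1, R 4.3.3) on all 21448 probe sets, without filter, covariate or block, with Benjamini-Hochberg adjustment and a threshold of 0.05. The fit was tested on simulated data. Array medians differed by under 0.05, and the number of arrays limits the precision. Alternatives were quantile normalization, median centring, a filter on probe sets under the median level, a table of 1 probe set per gene, robust estimation with a variance trend, the replicate number as a block, and leaving out each array. The members and lists were chosen with earlier results of these data known. All members are named, and of the further pathway genes the 3 with the lowest p per direction and role. Values by array are given for the regulators, for targets at an unadjusted p below 0.05, and for VEGFA, SLC2A1, BNIP3 and ADM. For other members and for the further pathway genes shown by array, that detail was chosen after their values were seen.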

Additional observations from a re-analysis of the deposited data

How the results depend on the processing

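The 29 members had 0 calls at an adjusted p of 0.05 under every alternative. Over all probe sets, 4 were called with a variance trend and robust estimation, IGFBP3 among them (limma adjusted p = 0.034), and 0 in the other alternatives. The count of members lower at an unadjusted p below 0.05, which was 1, was 2 (SLC2A1 and ARNT) with quantile normalization, median centring, 1 probe set per gene and the replicate block. It was 5 with the variance trend, where EPAS1, BNIP3L and ERO1A joined them, and 1 to 3 without a single array. The share of all probe sets lower at that p was 3.14%, 2.89%, 3.06% and 2.82% under the first 4 settings in that order, 3.12% with the variance trend and 2.64% to 3.06% without a single array. SLC2A1 was among them in every alternative except without EP300 replicate 3. The medians of the regulators and targets stayed below 0 in all alternatives, and that of the further pathway genes ran from -0.124 to -0.034 without a single array.

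VEGFA was at -0.048 with quantile normalization. Differences that changed sign without a single array ran from -0.237 to 0.173 for VEGFA, -0.200 to 0.043 for HIF1AN, -0.094 to 0.419 for EGLN1, -0.267 to 0.079 for CA12, -0.075 to 0.565 for DDIT4, -0.634 to 0.221 for KDM3A, -0.131 to 0.305 for SLC2A3, -0.352 to 0.070 for ANKRD37, -0.510 to 0.118 for SIAH1, -0.019 to 0.239 for HK2 and -0.018 to 0.371 for EDN1. The causes were not tested.

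Arrays with the same number did not deviate together over the probe sets (correlations of -0.0015, -0.0053 and -0.0089). The labels do not say whether equal numbers mark cultures handled together, and these correlations cannot decide it. With the replicate block 0 probe sets were called. Averaging a gene's probe sets was not run, since every measured member and named gene has a single one. With 3 arrays a group, 0 calls do not set a limit on the members' changes, and genes below the lower quartile lack a known background.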
